A study of Mus musculus with 6 samples.

Results

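The collagen genes were taken from an RNA-seq comparison of *Pax9*-null and wild-type mouse embryos as every row whose gene symbol consists of Col, a number, the letter a and a number. This gave 34 genes of the 14647 in the table, and 28 of the 34 passed the filter of a mean of at least 0.5 RPKM (reads scaled by gene length and by library size) over all libraries, among 13547 genes tested. The *Pax9*-null group held 3 libraries from embryos of genotype Pax9-/- and the wild-type group 3 libraries from stage-matched embryos, all at E9.5, on a C57Bl/6J background, untreated and of mixed sex. The null allele is carried by every cell of the embryo, so differences cannot be assigned to the pharyngeal endoderm in which *Pax9* is expressed. The RNA came from the dissected pharyngeal arch region, according to the study's methods and the series description. The protocol in the sample labels instead names sorted cells and another library kit, and all 6 libraries held abundant globin transcripts and 5 of them abundant cardiac transcripts. The description of whole dissected tissue was followed here.

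Collagens are the main structural proteins of the extracellular matrix. A chain of each collagen carries long runs in which glycine recurs at 1 residue in every 3, which lets 3 chains wind into a helix. Fibrillar collagens assemble into the fibrils of mesenchyme, cartilage and vessel walls, type IV forms the network of basement membranes beneath epithelium and endothelium, and the fibril-associated collagens with interrupted helices (FACIT) sit on the surface of fibrils. In the pharyngeal arches this matrix surrounds the neural crest-derived mesenchyme, the endoderm and the arch artery endothelium.

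The helix is legible in the transcripts themselves. The following 90-base coding stretches (GENCODE M21, sense strand) begin the longest glycine run of each of the 4 collagen genes with the most RPKM in wild-type embryos, and capitals mark each in-frame glycine codon.

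Col3a1, coding bases 490 to 579: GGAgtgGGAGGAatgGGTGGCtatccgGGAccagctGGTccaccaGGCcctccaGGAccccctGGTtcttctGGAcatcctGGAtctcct

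Col18a1, coding bases 2857 to 2946: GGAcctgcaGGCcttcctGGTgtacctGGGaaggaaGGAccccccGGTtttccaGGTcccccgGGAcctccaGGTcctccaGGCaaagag

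Col4a1, coding bases 127 to 216: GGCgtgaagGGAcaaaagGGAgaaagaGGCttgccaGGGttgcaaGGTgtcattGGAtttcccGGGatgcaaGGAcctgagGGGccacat

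Col2a1, coding bases 601 to 690: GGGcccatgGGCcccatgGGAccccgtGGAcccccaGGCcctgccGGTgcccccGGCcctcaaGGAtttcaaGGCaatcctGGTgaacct

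The unbroken run of glycine at every 3 codons was 344 repeats long in *Col3a1* and 339 in *Col2a1*, but 40 in *Col4a1* and 30 in *Col18a1*, whose helices are interrupted. Glycine took 28.3% of the codons of *Col3a1*, 28.6% of those of *Col4a1* and 16.0% of those of *Col18a1*.

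*Col4a1* and *Col4a2* are transcribed away from each other on chromosome 8, from RefSeq starts 21 bases apart. Their promoter windows (250 bases before to 50 after each start, GRCm38.p6) share 78 bases. Whether this sharing has a part in the changes of *Col4a1* and *Col4a2* was not tested. In the 78 bases, capitals mark a GC box (GGGCGG, searched on both strands). This box was in 69.0% of the 29 RefSeq promoter windows found for 26 collagen genes and in 35.7% of all 32851 windows. The GC content of the windows was not taken into account, and some collagen windows share bases. The CCAAT box (CCAAT) was in 37.9% of the collagen windows and 37.4% of all, the TATA box (TATAAA) in 10.3% and 13.6%, and a paired domain core (GTCACGC) in 0 of the 29 and 2.09% of all. At so low a rate, 0 matches in 29 windows does not set the collagen genes apart.

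chr8:11312777-11312854, + strand: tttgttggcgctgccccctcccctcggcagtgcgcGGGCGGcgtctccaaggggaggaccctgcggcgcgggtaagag

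*Pax9* itself (ENSMUSG00000001497), the check of the genotypes, was at -0.43, -0.63 and -0.59 log2 RPKM in the *Pax9*-null libraries and at 0.63, 0.71 and 0.96 in the wild-type libraries. Every null library was below every wild-type library, with a log2 difference of -1.32 (SE 0.19, adjusted *P*=0.0155, limma, *n*=3 per group). The libraries did not differ only by genotype. Summed over 5 primitive erythroid markers, the *Pax9*-null libraries held 4741, 2565 and 4310 RPKM and the wild-type libraries 2327, 2416 and 2372. Every null library was above every wild-type library, *Pax9*-null 1 and 3 by far the most. Such an order of libraries was found in 21.8% of all tested genes. Of the 5 markers 2 rose (limma, adjusted *P* of at most 0.1), beside 14.7% of all tested genes. Summed over 5 cardiomyocyte markers, wild-type 3 held 26.2 RPKM against 599 to 787 in the others, and for smooth muscle markers 50.5 against 217 to 289. None of the 5 cardiomyocyte and 3 tested smooth muscle markers passed the test (limma), nor had any an unadjusted *P* under 0.05. The part of these differences in the collagen results was not tested, and in whole tissue fewer cells of a type and less RNA per cell cannot be told apart.

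All 28 tested collagen genes had a lower mean in *Pax9*-null embryos. Of these, 16 fell past the threshold (adjusted *P* of at most 0.1, limma with Benjamini-Hochberg adjustment over all 13547 genes), and 12 did not pass the test. None rose, every estimate being below 0. *Col8a1*, *Col14a1* and *Col16a1* averaged under 0.5 RPKM in the null libraries and passed the filter only through the wild-type values. Among all genes tested, 12.0% fell and 14.7% rose. In the same 16 collagen genes every null library lay below every wild-type library, an arrangement found in 20.1% of all tested genes. The median log2 fold change of the 28 collagen genes was -0.75, ranging from -1.17 to -0.30, beside a median of -0.00 over all tested genes.

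**Figure D1:**
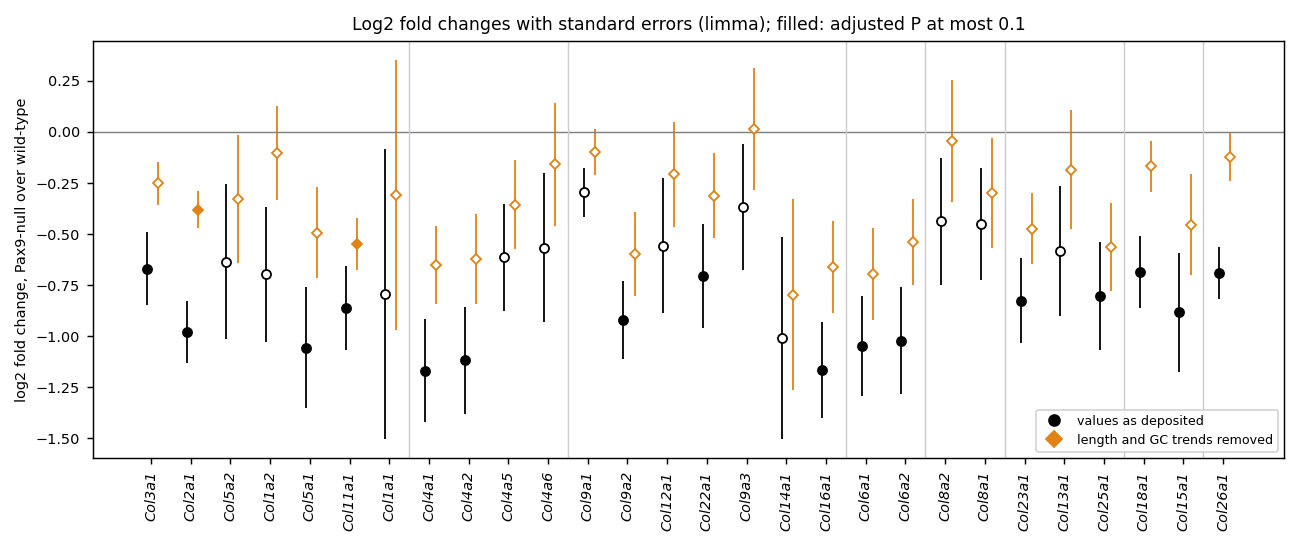
Log2 fold change (*Pax9*-null over wild-type, limma) of each of the 28 tested collagen genes, with its standard error as a bar and vertical lines between collagen types; black circles are the deposited values, orange diamonds the values with length and GC trends removed, and filled symbols have an adjusted *P* of at most 0.1. All 28 black circles lie below 0, between -1.17 and -0.30, with 16 filled, and the orange diamonds lie nearer 0, with *Col2a1* and *Col11a1* filled.

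The amount of collagen transcript was dominated by a handful of genes. *Col3a1* had a mean of 53.1 RPKM in wild-type embryos, *Col18a1* 40.8, *Col4a1* 39.3, *Col2a1* 22.5 and *Col4a2* 21.2. Summed over the 34 genes, collagen RPKM was 141, 210 and 159 in the *Pax9*-null libraries and 377, 236 and 269 in the wild-type libraries. The groups did not overlap, but *Pax9*-null 2 lay close to wild-type 2.

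**Figure D2:**
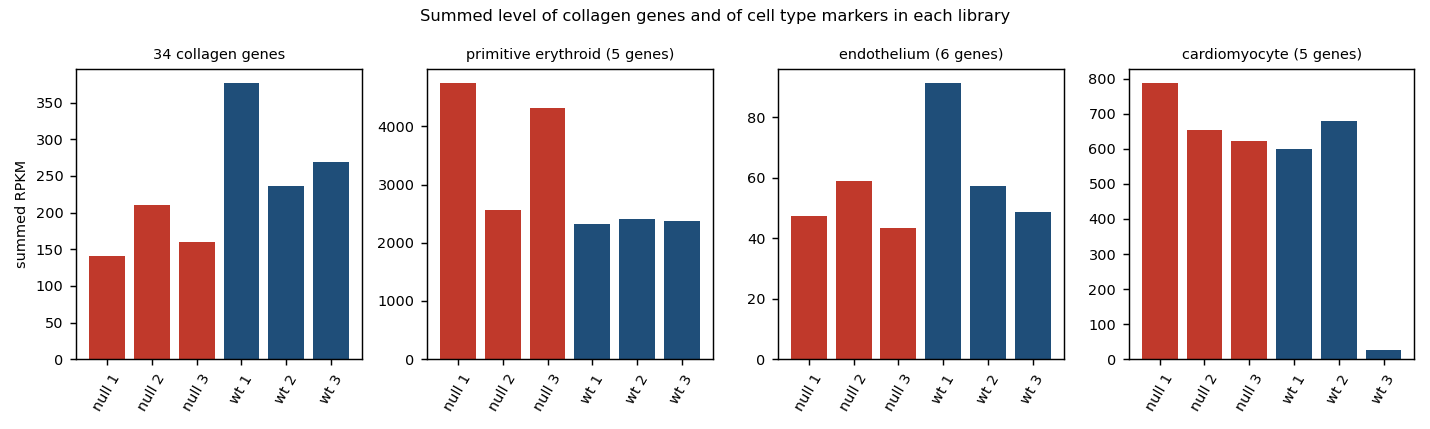
Bars give the summed RPKM of the 34 collagen genes and of the primitive erythroid, endothelial and cardiomyocyte markers in each library, with *Pax9*-null in red and wild-type (wt) in blue and a separate axis for each panel. Collagen runs from 141 in *Pax9*-null 1 to 377 in wild-type 1, erythroid markers are highest in *Pax9*-null 1 and 3, and cardiomyocyte markers are at 26.2 in wild-type 3.

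The fibrillar collagens numbered 11, of which 7 were tested and 4 fell, with a median log2 fold change of -0.79. *Col2a1* (ENSMUSG00000022483, chromosome 15, 97975602 to 98004695), the fibrillar collagen of cartilage and of the notochord sheath, was at 3.23, 3.82 and 3.48 log2 RPKM in the null libraries and at 4.62, 4.39 and 4.46 in the wild-type libraries. The highest null library was well below the lowest wild-type library. *Col2a1* fell to 50.7% of the wild-type level, a log2 difference of -0.98 (SE 0.15, adjusted *P*=0.0181). *Col3a1* (ENSMUSG00000026043, chromosome 1, 45311538 to 45349706), the fibrillar collagen of distensible tissues such as vessel walls, was at 4.88, 5.29 and 4.94 in the null libraries and 6.05, 5.38 and 5.68 in the wild-type libraries. The groups were separated by the narrow gap between *Pax9*-null 2 and wild-type 2. *Col3a1* fell by 0.67 on the log2 scale (SE 0.18, adjusted *P*=0.0546).

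*Col5a1* and *Col11a1* encode chains of the minor fibrillar collagens that regulate the diameter of type I and type II fibrils. *Col5a1* was at 1.80, 2.79 and 2.15 log2 RPKM in the null libraries against 3.80, 2.91 and 3.19, and fell by 1.06 (SE 0.30, adjusted *P*=0.0584). *Col11a1* was at 1.53, 1.85 and 1.44 against 2.85, 2.14 and 2.43, and fell by 0.86 (SE 0.21, adjusted *P*=0.045). For both genes the null library nearest the wild-type values was *Pax9*-null 2 and the wild-type library nearest the null values was wild-type 2.

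The chains of type I collagen, the main collagen of bone, skin and tendon, did not pass the test. *Col1a1* was at 0.14, 2.89 and 1.53 log2 RPKM in the null libraries and at 3.42, 1.58 and 1.94 in the wild-type libraries. The groups overlapped widely, and the 3 null libraries alone spanned 6.75-fold, on 83 to 891 reads across the 6 libraries. Its log2 difference was -0.79 (SE 0.71, adjusted *P*=0.451). *Col1a2* differed by -0.70 (SE 0.33, adjusted *P*=0.173) and *Col5a2*, the partner of *Col5a1*, by -0.64 (SE 0.38, adjusted *P*=0.268).

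All 4 type IV genes in the table were tested, and 2 fell. *Col4a1* (ENSMUSG00000031502, chromosome 8, 11198423 to 11312826) and *Col4a2* (ENSMUSG00000031503, chromosome 8, 11312805 to 11449287) encode the chains found in nearly every basement membrane. *Col4a1* was at 3.80, 4.42 and 3.99 log2 RPKM in the null libraries and at 5.79, 4.86 and 5.07 in the wild-type libraries. *Col4a2* was at 2.90, 3.74 and 3.09 against 4.81, 3.99 and 4.30. In both genes the order of the 6 libraries was the same, with wild-type 1 highest and *Pax9*-null 1 lowest. *Col4a1* fell to 44.5% of the wild-type level (log2 difference -1.17, SE 0.25, adjusted *P*=0.0407) and *Col4a2* to 46.0% (-1.12, SE 0.26, adjusted *P*=0.0437). Their transcripts overlap by 22 bases on opposite strands, under 1% of either length, and 43 bases of *Col4a2* overlap an antisense gene.

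*Col4a5* and *Col4a6*, X-linked neighbours whose chains join in a more restricted basement membrane network, did not pass the test. *Col4a5* differed by -0.61 (SE 0.26, adjusted *P*=0.14) and *Col4a6* by -0.57 (SE 0.36, adjusted *P*=0.298), and in each the groups overlapped. Type IV genes made up 24.8% of collagen RPKM in wild-type embryos (23.3 to 27.3% across the 3 libraries) and 20.7% in *Pax9*-null embryos (19.9 to 21.9%).

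The FACIT group held 7 genes, all tested, of which 3 fell. *Col9a2*, a chain of the type IX collagen that coats type II fibrils, was at 0.25, 0.44 and 0.48 log2 RPKM in the null libraries and at 1.61, 1.07 and 1.25 in the wild-type libraries, without overlap. It fell by 0.92 (SE 0.19, adjusted *P*=0.0378). *Col16a1* fell by 1.17 (SE 0.24, adjusted *P*=0.0364), on only 26 to 75 reads per library. It averaged 0.36 RPKM in the null and 0.81 in the wild-type libraries, and so passed the filter only through the wild-type values. *Col22a1* fell by 0.70 (SE 0.25, adjusted *P*=0.0967), just inside the threshold.

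The other FACIT genes did not pass. *Col9a1*, the most abundant of the group, had the smallest difference of any tested collagen gene, at 3.71, 3.57 and 3.69 log2 RPKM against 4.05, 3.71 and 4.11. That is a difference of -0.30 (SE 0.12, adjusted *P*=0.129). *Col9a3* differed by -0.37 (SE 0.31, adjusted *P*=0.421), and 6.07% of its length overlaps *Tcfl5* on the opposite strand. Counting ignored strand, and whether reads from the overlap entered the *Col9a3* value was not tested. *Col12a1* differed by -0.56 (SE 0.33, adjusted *P*=0.265) and *Col14a1* by -1.01 (SE 0.50, adjusted *P*=0.186), with wild-type 1 the highest library in both.

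**Figure D3:**
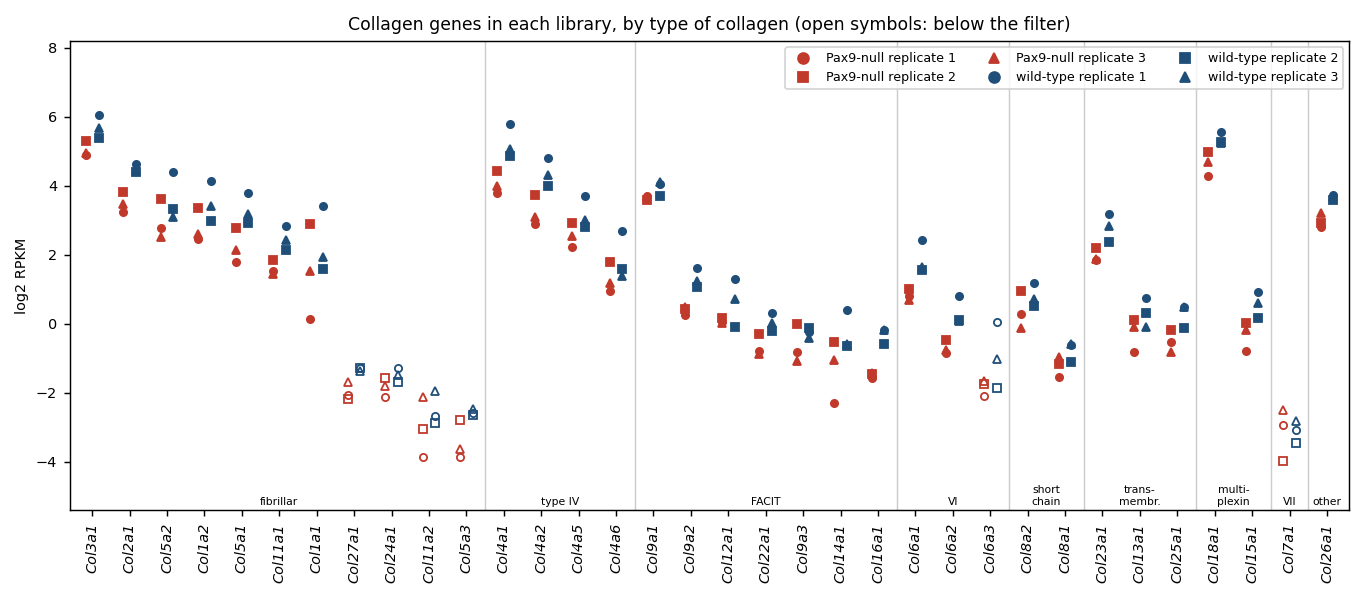
Log2 RPKM of each of the 34 collagen genes in the 6 libraries, with *Pax9*-null in red and wild-type in blue, a symbol shape for each replicate number, and open symbols for the 6 genes below the filter. Points of the 2 genotypes are apart for *Col2a1*, *Col4a1* and *Col6a1* and intermixed for *Col1a1*.

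Type VI collagen forms beaded microfilaments around cells. *Col6a1* was at 0.80, 1.01 and 0.70 log2 RPKM in the null libraries and at 2.43, 1.57 and 1.66 in the wild-type libraries, and fell by 1.05 (SE 0.24, adjusted *P*=0.0433). *Col6a2* was at -0.85, -0.46 and -0.76 against 0.80, 0.10 and 0.09, and fell by 1.02 (SE 0.26, adjusted *P*=0.0493). They fell to 48.4% and 49.2% of the wild-type level, and wild-type 1 stood above the other wild-type libraries in each. *Col6a3* was too low to test, and its wild-type libraries, at 0.05, -1.87 and -1.01, overlapped the null libraries at -2.09, -1.73 and -1.66.

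The multiplexins are basement membrane collagens whose ends can be released as soluble fragments, and both members fell. *Col18a1* (ENSMUSG00000001435, chromosome 10, 77052178 to 77166548), the source of endostatin, was at 4.29, 4.99 and 4.68 log2 RPKM in the null libraries and at 5.54, 5.26 and 5.22 in the wild-type libraries. It fell to 62.1% of the wild-type level (log2 difference -0.69, SE 0.18, adjusted *P*=0.0495). *Col15a1* fell by 0.88 (SE 0.29, adjusted *P*=0.0807).

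Of the transmembrane collagens, *Col23a1* fell by 0.83 (SE 0.21, adjusted *P*=0.0487) and *Col25a1* by 0.80 (SE 0.26, adjusted *P*=0.0807). *Col13a1* differed by -0.58 (SE 0.32, adjusted *P*=0.227). *Col26a1*, placed in no other class, was at 2.81, 2.91 and 3.22 log2 RPKM in the null libraries and at 3.74, 3.60 and 3.68 in the wild-type libraries. The SD of its wild-type libraries was 0.07, and it fell by 0.69 (SE 0.13, adjusted *P*=0.0292). The short-chain collagens *Col8a1* (-0.45, SE 0.27, adjusted *P*=0.274) and *Col8a2* (-0.44, SE 0.31, adjusted *P*=0.339) did not pass.

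The 6 genes below the filter were *Col5a3*, *Col6a3*, *Col7a1*, *Col11a2*, *Col24a1* and *Col27a1*. All had a lower mean log2 value in the null libraries, by between 0.03 for the anchoring-fibril gene *Col7a1* and 0.88 for *Col6a3*. In *Col5a3* and *Col27a1* every null library was below every wild-type library, an order found in 20.1% of all tested genes. *Col11a2* was read only 5 to 22 times per library and *Col5a3* 5 to 15 times, and neither was tested.

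The size of the fall depended on which libraries were compared. Expressed as the deviation from each gene's mean over the 6 libraries, the median of the 28 genes was 0.80 in wild-type 1, 0.32 in wild-type 3 and 0.10 in wild-type 2, and -0.62, -0.08 and -0.52 in *Pax9*-null 1, 2 and 3. Wild-type 1 was the highest of all libraries in 23 of 28 collagen genes, against 29.9% of all tested genes. *Pax9*-null 1 was the lowest in 19 of 28, against 21.2% of all tested genes. The ends of the range were thus set by wild-type 1 and *Pax9*-null 1, while *Pax9*-null 2 and wild-type 2 lay in the middle.

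**Figure D4:**
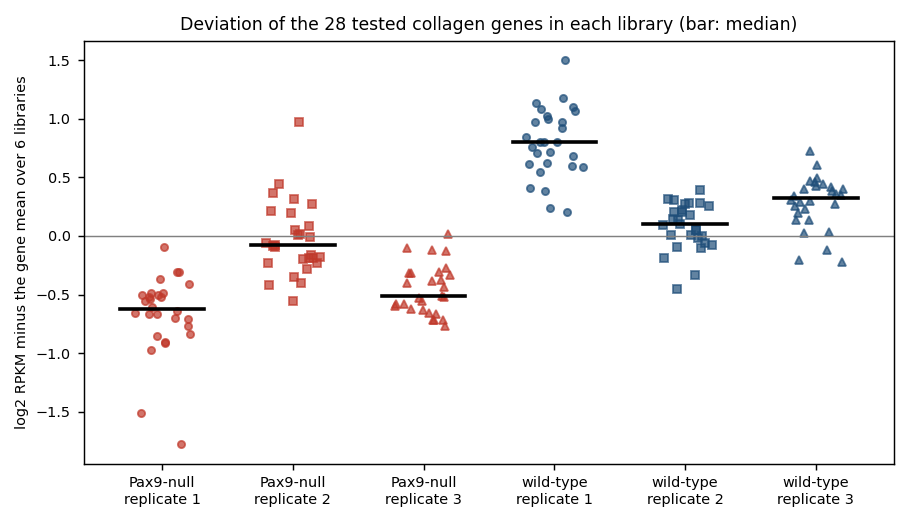
Deviation of each of the 28 tested collagen genes from its mean over the 6 libraries (log2 RPKM), 1 point per gene, with the median of each library as a bar. The medians run from -0.62 in *Pax9*-null 1 to 0.80 in wild-type 1, and those of *Pax9*-null 2 (-0.08) and wild-type 2 (0.10) are close to 0.

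Between single libraries the contrast was uneven. *Pax9*-null 1 and *Pax9*-null 3 were each below wild-type 1 and wild-type 3 in 28 of 28 genes and below wild-type 2 in 26. *Pax9*-null 2 was below wild-type 1 in 27 genes, below wild-type 3 in 21 and below wild-type 2 in 19, with a median difference from wild-type 2 of only -0.13. *Pax9*-null 2 was the highest null library in 23 of 28 genes and wild-type 2 the lowest wild-type library in 22. Over all tested genes the median difference between a null and a wild-type library lay between -0.02 and 0.01. The share of all tested genes with these orders was not counted. The 2 null libraries with the lowest collagen values were also those with the highest erythroid sums, a co-variation whose part in the result was not tested.

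Each library was then left out in turn. Without *Pax9*-null 1 only *Col2a1* remained past the threshold (background 0.295% of all genes lower), and without *Pax9*-null 3 only *Col26a1* (0.162%). Without *Pax9*-null 2, 17 genes fell (10.2%), and without wild-type 2, 20 fell (11.6%). Without wild-type 1, 11 fell (5.15%), the losses being *Col5a1*, *Col6a2*, *Col15a1*, *Col22a1* and *Col25a1*. Without wild-type 3, the library low in cardiac genes, 13 fell (6.64%), the losses being *Col15a1*, *Col22a1* and *Col25a1*. No collagen gene was past the threshold in all 6 of these fits. All 28 differences stayed below 0 in each, and the median log2 fold change lay between -0.98 and -0.60.

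**Figure D5:**
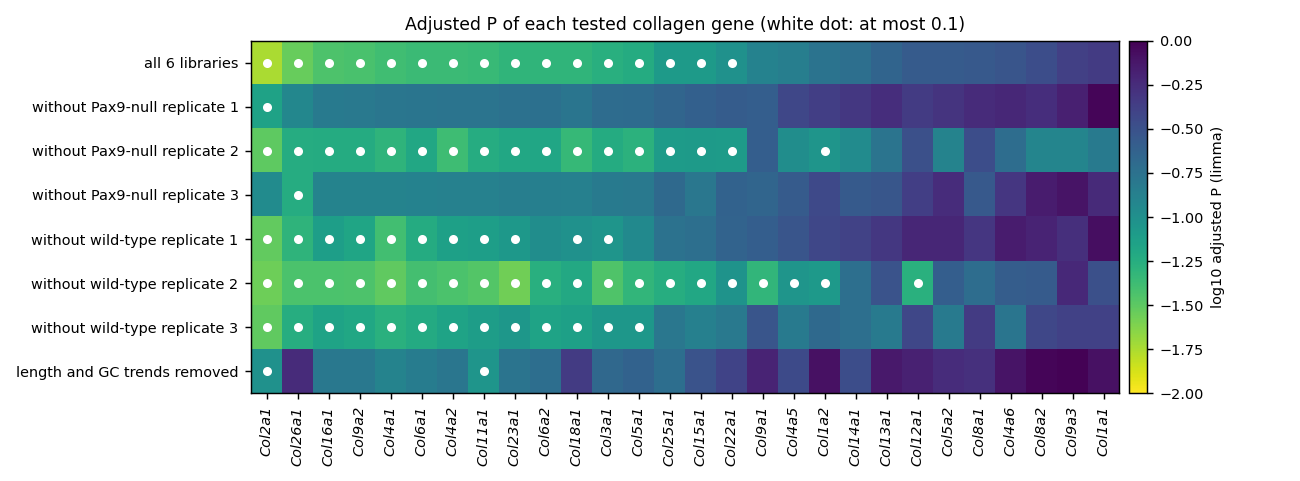
Colour gives the log10 adjusted *P* (limma) of each tested collagen gene (columns) with all 6 libraries, with each library left out, and with length and GC trends removed (lines), and a white dot marks an adjusted *P* of at most 0.1. There are 16 dots with all libraries, 1 without *Pax9*-null 1, 1 without *Pax9*-null 3 and 20 without wild-type 2.

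Collagen genes were longer in exons and richer in GC than most. Their median length, with all exons of a gene merged, was 7242.5 bp, against 4170 bp over all genes. The median GC content of the longest transcript was 56.0%, against 49.3%. These merged lengths were used below, with 9243 bp for *Col2a1*, whose read numbers rest on 6001 bp. Over all tested genes the log2 fold change correlated with length (Spearman's rho -0.40) and with GC content (-0.44), a description across genes that share the same 6 libraries. After each library's trend with length and GC content was removed, 27 of the 28 collagen genes were still lower, with a median of -0.34. *Col2a1* (-0.38, adjusted *P*=0.0971, with 0.014 to 0.109 over all alternatives) and *Col11a1* (-0.55, adjusted *P*=0.0902, with 0.0343 to 0.17 over all alternatives) were then the genes past the threshold, beside 1.63% of all genes lower. By type the median was then -0.62 for type VI, -0.49 for type IV, -0.47 for the transmembrane, -0.33 for the fibrillar and -0.31 for the FACIT and multiplexin genes. It was -0.17 for the short-chain genes, and *Col26a1* was at -0.12. What part length and GC content have in the fall was not tested.

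Chains that assemble into the same molecule were compared by their log2 ratio within each library, over 8 pairs with an exact two-sided permutation test whose smallest possible *P* is 0.1. The ratio of *Col4a1* to *Col4a2* was 0.90, 0.68 and 0.90 in the null libraries and 0.98, 0.87 and 0.77 in the wild-type libraries, and that of *Col6a1* to *Col6a2* was 1.65, 1.47 and 1.47 against 1.63, 1.47 and 1.56. The groups overlapped in both pairs, with differences of -0.05 (exact *P*=0.7) and -0.02 (exact *P*=0.9). Larger differences that also overlapped were those of *Col9a2* to *Col9a3* (-0.55, exact *P*=0.2), *Col5a1* to *Col5a2* (-0.42, exact *P*=0.3) and *Col11a1* to *Col11a2* (-0.35, exact *P*=0.6). The remaining pairs, *Col1a1* to *Col1a2* and *Col4a5* to *Col4a6*, differed by -0.10 (exact *P*=1) and -0.05 (exact *P*=0.9). The ratio of *Col9a1* to *Col9a2* was the exception to overlap, at 3.47, 3.13 and 3.21 in the null libraries and 2.44, 2.63 and 2.86 in the wild-type libraries. Its difference was 0.62 (exact permutation *P*=0.1, adjusted *P*=0.8 over the 8 pairs), which this number of libraries cannot carry past 0.05.

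The genes that build, cut, cross-link and bind collagen changed in part. Of 46 tested genes of this list 12 fell and 1 rose, with a median log2 fold change of -0.46, beside 12.0% lower and 14.7% higher among all tested genes. None of the 12 was past the threshold with length and GC trends removed, or without *Pax9*-null 1 or *Pax9*-null 3 (limma, with 8, 10 and 13 genes of the list lower at an unadjusted *P* under 0.05). Of 17 genes for folding and modification in the cell 2 fell, a share near that of all genes. These were the lysyl hydroxylases *Plod1* (-0.58, adjusted *P*=0.0513) and *Plod3* (-0.62, adjusted *P*=0.0572), and the cyclophilin *Ppib* rose by 0.36 (adjusted *P*=0.0908). *Serpinh1*, the collagen-specific chaperone, differed by 0.03 (SE 0.11, adjusted *P*=0.887). Of 5 propeptide cleavage genes *Bmp1* (-0.94, adjusted *P*=0.0352) and *Adamts3* (-0.52, adjusted *P*=0.0762) fell, and of 4 cross-linking genes *Loxl2* (-0.59, adjusted *P*=0.0623) and *Loxl3* (-0.56, adjusted *P*=0.0624) did.

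Of 5 collagen receptor genes *Ddr1*, a receptor tyrosine kinase, fell by 0.40 (SE 0.09, adjusted *P*=0.0433). Of 6 fibril partners the proteoglycan *Bgn* fell (-0.73, adjusted *P*=0.0477). With 12.0% of all tested genes lower, a count of 1 does not set the receptors or the fibril partners apart. All 9 basement membrane partners had a mean below that of wild-type, with a median of -0.66, beside 50.2% of all tested genes below wild-type. Against 12.0% of all tested genes, 4 of the 9 fell. These were the laminin chains *Lama1* (-0.67, adjusted *P*=0.0926) and *Lamc1* (-0.81, adjusted *P*=0.0818), nidogen *Nid1* (-0.90, adjusted *P*=0.069) and agrin *Agrn* (-0.66, adjusted *P*=0.0651).

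The counts of cell type markers that follow stand beside 12.0% lower and 14.7% higher among all tested genes. Among markers of cells that make collagen, the pericyte and mesenchyme receptor *Pdgfrb* fell by 0.83 (adjusted *P*=0.0414), and the mesenchymal regulator *Twist1* rose by 0.35 (adjusted *P*=0.0399). The summed level of the 6 arch mesenchyme markers was 97 to 112 RPKM in the null and 96 to 121 in the wild-type libraries, which overlapped. Of 6 endothelial markers *Cdh5* (-0.67, adjusted *P*=0.0735) and *Tie1* (-0.74, adjusted *P*=0.082) fell. Their summed level was 43.4 to 58.9 RPKM in the null and 48.7 to 91.3 in the wild-type libraries, again highest in wild-type 1. Of 6 neural crest markers *Sox10* fell (-0.59, adjusted *P*=0.0828), with a median of -0.18 over the list. Of 6 neural tube markers *Nes* fell (-1.01, adjusted *P*=0.0148), but 4 of the 6 had a higher mean in the null libraries and the list's median was 0.19. The summed neural tube level did not overlap between the groups, at 134 to 144 RPKM in the null and 157 to 244 in the wild-type libraries, with wild-type 3 highest. Of single tested genes, 20.1% had every null library below every wild-type library. None of the 4 tested notochord and cartilage markers and of the 6 endodermal and epithelial markers passed the test (limma), and at an unadjusted *P* under 0.05 there were 0 and 1. Of the yolk sac endoderm markers 1 was in the table, at no more than 0.156 RPKM. The part of these cell types in the collagen values was not tested.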

How the data were processed

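RNA-seq libraries were made from dissected pharyngeal tissue of E9.5 embryos, 3 *Pax9*-null and 3 wild-type, described as biological replicates. Per the labels, reads were trimmed with Trimmomatic (0.32), aligned to GRCm38.p5 (mm10) with STAR (2.5.1a) and counted per gene with featureCounts (1.5.1). The study's methods give default counting settings, which ignore strand. The authors deposited log2 RPKM values, scaled by effective library sizes, and the values imply that 0.5 was added to each read number. Whole reads recovered from them (82.7% of all values within 0.05 of a whole read at GENCODE M21 gene lengths) gave the read numbers printed. For *Col2a1*, *Col8a1* and *Col11a2* the length was found by search. The study's methods also describe removal of redundant and multiply aligned reads, and sub-sampling of each library towards the smallest. Effective library sizes, inferred from the values, were 11509904 to 11728253 in the null and 12352676 to 12692325 in the wild-type libraries. They did not overlap between the genotypes, and the part of this in the results was not tested.

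Genes averaging 0.5 RPKM or more over the 6 libraries were tested with limma (3.58.1, R 4.3.3; trended variance, two-sided), with Benjamini-Hochberg adjustment over all tested genes and a threshold of 0.1. The fit was tested on simulated data. Fold changes are on the deposited log2 scale. Every symbol matching the collagen rule was named, with *Pax9* and the genes of the biosynthesis list that passed, plus *Serpinh1*. Among the cell type markers, genes that passed were named after their values were seen, except erythroid genes, which are given as a sum and not reported singly here. The members and lists were chosen with earlier results of these data known. Promoters are from RefSeq (GRCm38.p6). Other filters, pseudocounts, scalings, variance models, thresholds, a replicate term, removal of length and GC trends and omission of each library were also tried.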

Additional observations from a re-analysis of the deposited data

How the results depend on the processing

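With 3 libraries per group, and tested collagen genes down to 16 reads in a library, small differences in low genes could not be resolved. Genes that fell on few reads per library included *Col16a1* (26 to 75), *Col9a2* (42 to 119), *Col15a1* (42 to 153) and *Col6a2* (53 to 183). The 16 collagen genes lower became 2 with length and GC trends removed, 11 at a threshold of 0.05, and 1 to 20 with a library left out. At a mean of at least 5 RPKM, 8 of 12 tested were lower (66.7%, against 57.1% of 28 in the main fit). Those lost from the 16 had a mean under 5 RPKM and were not tested there. The number was 16 without a filter, with quantile normalization, with either pseudocount and without a variance trend, and 15 with median centring. The collagen median of -0.75 became -0.34 with trends removed. Of all tested genes, 1621 lower and 1990 higher became 221 and 305 with trends removed, 502 and 833 at 0.05, and 22 to 1572 and 153 to 2006 with a library left out. The biosynthesis list had 12 genes lower, which became 0 with trends removed (8 at an unadjusted *P* under 0.05, limma), 3 at 0.05 and 0 to 15 with a library left out. Its 1 gene higher became 2 with median centring, 0 with quantile normalization, without a variance trend, with trends removed or at 0.05, and 0 to 2 with a library left out. *Col9a3* turned to 0.0146 with trends removed. Apart from the collagen genes removed by the filter, the cause of these changes was not tested.

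The ratio difference of *Col1a1* to *Col1a2* turned from -0.10 to 0.0540 with a pseudocount of 1. With a library left out it ranged from -0.50 to 0.42, that of *Col4a1* to *Col4a2* from -0.10 to 0.0232, *Col4a5* to *Col4a6* from -0.18 to 0.12, *Col6a1* to *Col6a2* from -0.0852 to 0.0156 and *Col11a1* to *Col11a2* from -0.74 to 0.18.

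Deviations from the group mean correlated at -0.02, -0.17 and 0.26 between same-numbered libraries, and at -0.35 to 0.36 between the others. With 3 libraries per group, these values cannot decide whether the replicate numbers pair embryos. With the replicate block, 11 collagen genes were lower, 495 of all genes were lower and 882 higher, and 3 genes of the biosynthesis list were lower and 0 higher.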
